A study of Mus musculus with 12 samples.

Results

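The genes described here code for the coat proteins of the lipid droplet and for the enzymes that empty it. They are Plin2, Plin3, Plin4 and Plin5 of the perilipin family, the triglyceride lipase gene Pnpla2 with its coactivator gene Abhd5 and its inhibitor gene G0s2, the hormone-sensitive lipase gene Lipe and the monoglyceride lipase gene Mgll. The members were chosen by gene symbol, with the brightest row taken where a symbol has several. All 9 were found among the 22206 transcripts of the array, each with 1 row and 10 probes. The tissue was the M. gastrocnemius, the large calf muscle, of male C57BL/6J mice. The P1.2 group received a diet with 1.2% phosphorus (high phosphorus, HP) for 6 weeks, and the P0.3 group received the same basal diet with 0.3% phosphorus (adequate phosphorus, NP). There were 6 mice per diet with 1 array each, labelled as 6.5 months of age, and no sample was pooled. Phosphorus was added as potassium dihydrogen phosphate, and potassium hydrogen carbonate made up the potassium in the P0.3 diet. The mice were housed in pairs, and the labels do not say which mice shared a cage. The study asked whether a high phosphorus intake changes the lipids and the gene expression of muscle.

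In muscle, fatty acids that are not burned at once are stored as triglyceride in lipid droplets. Perilipins cover the surface of the droplet and control the access of lipases. The product of Pnpla2, also called ATGL, removes the first fatty acid of triglyceride, the product of Lipe cleaves diglyceride, and the product of Mgll cleaves the monoglyceride that remains. Released fatty acids feed mitochondrial oxidation, and they serve as ligands of the PPAR transcription factors, which drive several droplet genes. Slow and other oxidative fibres hold more droplets than fast glycolytic fibres.

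No member differed between the diets beyond the spread between mice. The mean signal was higher in the P1.2 group for 6 members and lower for 3, with a median log2 fold change of 0.27 over the members and -0.008 over all transcripts. The study called a transcript where it differed more than 1.3-fold with p under 0.05 before adjustment, and with limma's p 0 of 9 members were called. Over all transcripts, 204 were called higher (0.919%) and 303 lower (1.36%) in the P1.2 group. This balance depended on the scaling, with 287 higher and 203 lower after centring the arrays on their medians and 240 higher and 213 lower after quantile normalization. The adjusted p of limma was 0.9999 for each member, and 0 of 22206 transcripts (0%) had an adjusted p under 0.05, while 722 had an unadjusted p under 0.05. The methods' t-test also gave 0 transcripts after Benjamini-Hochberg adjustment and 810 at an unadjusted p under 0.05. Likewise, 0 members had groups without overlap, compared with 34 of all transcripts (0.153%). The members differed from one another in their spread between mice. Of the 9 members, Pnpla2, G0s2, Mgll and Lipe followed the slow fibre genes of the same array, and Abhd5 stood nearly constant. The call of Lipe was the least steady, since leaving out most single arrays removed it. Plin3 rose with a similar slope at an adjusted p of 0.0850. Such slopes were not particular to the members, and 12 of 22 PPAR target genes also had them.

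The members are spread over 6 chromosomes, and 3 perilipin genes lie on chromosome 17. The files give positions without naming a build. Of the 20564 transcripts whose symbol is in the GRCm38 annotation of RefSeq, 98.4% overlapped the gene of that symbol there. Plin4 lies on the minus strand of chr17:56100591-56109802 and Plin5 on the same strand at chr17:56111601-56117596, only 1799 bases away. Plin3 lies 161366 bases farther on that strand at chr17:56278962-56290511. Plin2 lies on chromosome 4, Pnpla2 and Lipe lie on chromosome 7, and Abhd5, Mgll and G0s2 lie on chromosomes 9, 6 and 1.

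RefSeq holds promoter windows (build GRCm38.p6) for all 9 members, 12 windows in all. The 250 bases before the annotated start are printed 5′ to 3′ in the direction of the gene for 2 pairs. Pnpla2 and G0s2 are shown because their signals were the most alike of all pairs of members, and Plin2 and Abhd5 because each had its highest r among the members with the other, a value that rests on few arrays. In the Pnpla2 (chr7:141454938-141455187, plus strand) and G0s2 (chr1:193273189-193273438, minus strand) windows the capitals mark the GC box GGGCGG on either strand. In the Plin2 (chr4:86670060-86670309, minus strand) and Abhd5 (chr9:122351366-122351615, plus strand) windows they mark the nuclear receptor core site AGGTCA on either strand.
Pnpla2: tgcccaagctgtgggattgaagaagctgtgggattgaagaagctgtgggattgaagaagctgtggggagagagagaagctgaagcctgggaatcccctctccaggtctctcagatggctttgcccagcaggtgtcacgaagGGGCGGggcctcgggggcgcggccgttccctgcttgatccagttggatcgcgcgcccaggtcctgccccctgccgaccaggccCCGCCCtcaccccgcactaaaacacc
G0s2: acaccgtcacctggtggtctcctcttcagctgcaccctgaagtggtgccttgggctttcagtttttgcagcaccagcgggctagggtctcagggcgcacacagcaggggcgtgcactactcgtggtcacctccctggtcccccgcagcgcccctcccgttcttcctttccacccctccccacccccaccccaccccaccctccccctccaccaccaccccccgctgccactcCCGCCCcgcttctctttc
Plin2: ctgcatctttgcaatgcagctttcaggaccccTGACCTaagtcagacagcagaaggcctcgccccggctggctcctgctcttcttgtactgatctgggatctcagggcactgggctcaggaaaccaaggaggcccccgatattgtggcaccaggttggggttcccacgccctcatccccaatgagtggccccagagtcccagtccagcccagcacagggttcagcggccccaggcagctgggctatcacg
Abhd5: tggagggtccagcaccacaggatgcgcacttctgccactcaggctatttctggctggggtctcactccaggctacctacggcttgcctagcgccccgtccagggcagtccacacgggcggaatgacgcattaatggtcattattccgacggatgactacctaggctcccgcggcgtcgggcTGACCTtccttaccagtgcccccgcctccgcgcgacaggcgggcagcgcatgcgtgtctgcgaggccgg
The Pnpla2 window held 2 GC boxes, with their first bases 109 and 26 bases before the start, and the G0s2 window held 1, 18 bases before the start. GC boxes stood in 8 of the 12 member windows and in 32.7% of all 32851 windows. The core site stood 218 bases before the start in Plin2 and 69 bases before it in Abhd5, and 1 window of Plin5 also held it. It was present in 14.02% of all windows. The spaced pair AGGTCANAGGTCA, the form of element that PPAR binds, stood in none of the member windows and in 0.03% of all windows. These exact letters are so rare, in 11 of 32851 windows, that their absence from 12 windows cannot decide whether the members hold such elements. CCAAT was found in 4 of the 12 member windows, 1 of each perilipin gene, a share close to the 33.9% of all windows. The E-box CANNTG stood in 9 of the 12 member windows and in 66.2% of all windows. These matches are letters only, and binding was not measured.

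**Figure D1:**
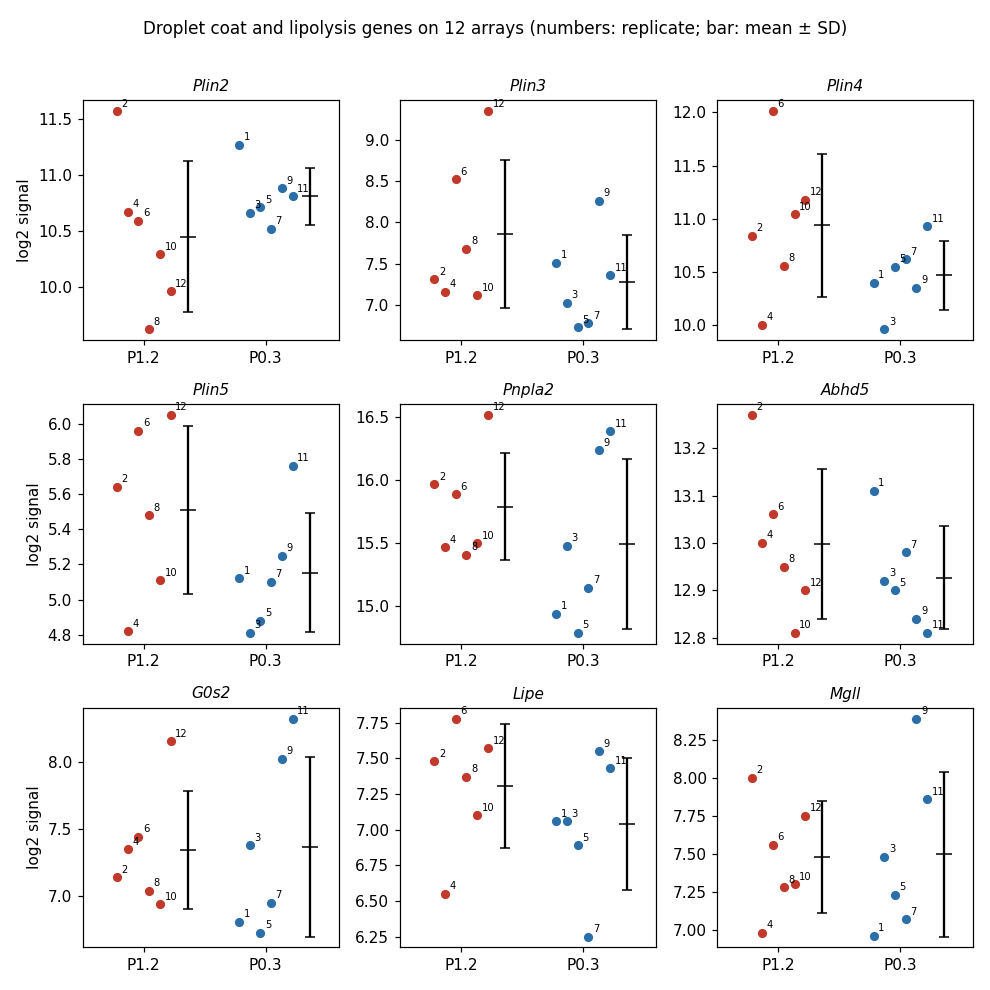
Log2 signal of each gene on the 12 arrays, with the P1.2 mice (red) left of the P0.3 mice (blue). Numbers name the replicates, the bars are the mean ± SD of 6 arrays, and the axes do not start at 0. The diets overlapped for all 9 genes, and P1.2 replicate 2 was highest for Plin2 and Abhd5.

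Plin2, the perilipin found in most cell types, was lower on average in the P1.2 group. Its lowest, median and highest log2 signals were 9.62, 10.44 and 11.57 in P1.2 mice, against 10.52, 10.76 and 11.27 in P0.3 mice. In all, 5 of 6 P1.2 mice lay below the P0.3 mean, whereas P1.2 replicate 2 lay above all P0.3 mice. The log2 fold change was -0.36 (standard error 0.25, 95% interval -0.90 to 0.18), with p = 0.180 in limma and 0.260 in the two-sided exact permutation test over 924 splits of the arrays (smallest possible p = 0.0022). Without P1.2 replicate 2 it was -0.58 and passed the study's criteria, with limma p = 0.0108, adjusted p = 0.9999 and exact permutation p = 0.0173. Without P1.2 replicate 8, the lowest mouse, it was -0.19 (exact permutation p = 0.509). P1.2 replicate 2, the highest mouse for Plin2, also held the highest signal of S100a8, a neutrophil gene, at 8.53. Of the 8 neutrophil markers, only S100a8 and Retnlg were checked for arrays that stand apart. The part of neutrophil RNA in the Plin2 signal was not tested.

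Plin3, a perilipin that cycles between the cytosol and young droplets, had the widest spread of the members. Its lowest, median and highest log2 signals were 7.12, 7.50 and 9.34 in P1.2 mice, against 6.73, 7.19 and 8.26 in P0.3 mice. P1.2 replicates 12 and 6 and P0.3 replicate 9 stood above all other mice. P1.2 minus P0.3 gave a log2 fold change of 0.58 (standard error 0.35, 95% interval -0.17 to 1.33; limma p = 0.123, exact permutation p = 0.216). The gene passed the study's criteria when the slow fibre mean described below entered the fit (0.58, limma p = 0.0493, adjusted p = 0.999) and without P0.3 replicate 9 (0.77, limma p = 0.0404, exact permutation p = 0.108). Without P1.2 replicate 12 it was 0.28 (exact permutation p = 0.439), and without both P1.2 replicates 6 and 12, chosen after their values were seen, it was 0.04. The pooled SD within diets was 0.75, and 98.4% of all transcripts had a smaller one.

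Plin4, a large perilipin of muscle and fat, had log2 signals of 9.998, 10.94 and 12.01 (lowest, median and highest) in P1.2 mice, against 9.96, 10.47 and 10.93 in P0.3 mice. In the P1.2 group 5 of 6 mice lay above the P0.3 mean, and replicate 6 was the highest of all. Its mean differed by a log2 fold change of 0.47 (standard error 0.26, 95% interval -0.08 to 1.02; limma p = 0.0897, exact permutation p = 0.149). Leaving out P1.2 replicate 4, the lowest of its group, gave 0.66 and a call (limma p = 0.0124, adjusted p = 0.990, exact permutation p = 0.0216). Leaving out replicate 6 gave 0.26 (exact permutation p = 0.297), and leaving out both replicates 6 and 12 gave 0.14.

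Plin5, the perilipin of oxidative tissues that tethers droplets to mitochondria, was dim on this array. Its log2 signals were 4.82, 5.56 and 6.05 (lowest, median and highest) in P1.2 mice, against 4.81, 5.11 and 5.76 in P0.3 mice. All 12 values lay below 6.11, the level under which 95% of 1451 odorant and vomeronasal receptor transcripts lie. This group was taken here as a guide to background. The Plin5 values are therefore not set apart from background here. For Plin5 the log2 fold change was 0.36 (standard error 0.22, 95% interval -0.10 to 0.81; limma p = 0.118, exact permutation p = 0.169). The gene passed the study's criteria without P1.2 replicate 4 (0.49, limma p = 0.0270, exact permutation p = 0.0541) and without P0.3 replicate 11 (0.48, limma p = 0.0369, exact permutation p = 0.0758). Without P1.2 replicate 12 the difference was 0.25, and without both P1.2 replicates 6 and 12 it was 0.11.

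**Figure D2:**
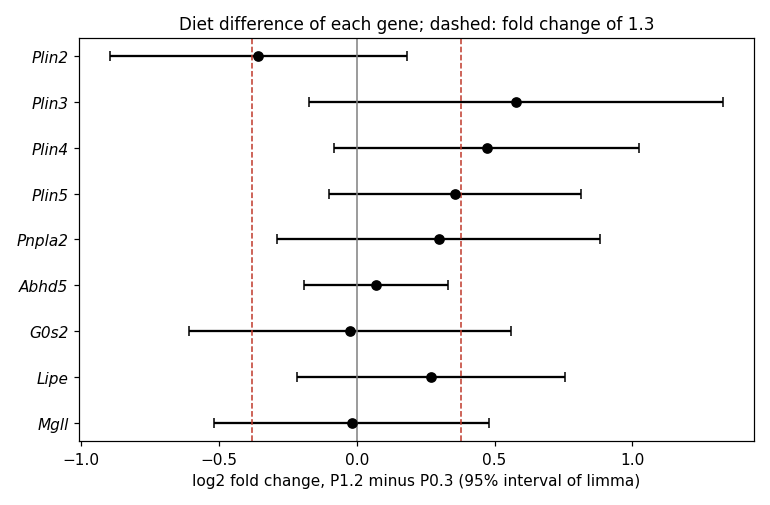
Log2 fold change, P1.2 minus P0.3, of each gene (point) with the 95% interval of limma (line), 6 arrays per diet. All 9 intervals include 0, and the dashed lines mark a fold change of 1.3 in either direction. Plin3 has the widest interval and Abhd5 the narrowest.

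The triglyceride lipase gene Pnpla2 was bright in both diets. Its log2 signals were 15.41, 15.70 and 16.52 (lowest, median and highest) in P1.2 mice, against 14.79, 15.31 and 16.39 in P0.3 mice. P0.3 replicates 9 and 11 lay above the P1.2 median, whereas P0.3 replicates 1, 5 and 7 lay below every P1.2 mouse. Between the diets the log2 fold change was 0.30 (standard error 0.28, 95% interval -0.29 to 0.88; limma p = 0.298, exact permutation p = 0.374). It was 0.15 without P1.2 replicate 12 and 0.48 without P0.3 replicate 11, the ends of its range with each array left out. With the slow fibre mean in the fit the difference stayed at 0.30, with a standard error of 0.16 and an adjusted p of 0.999.

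Abhd5, also called CGI-58, activates the lipase once perilipins release it. Its log2 signals were 12.81, 12.98 and 13.27 (lowest, median and highest) in P1.2 mice, against 12.81, 12.91 and 13.11 in P0.3 mice. The 12 mice spanned only 0.46 on the log2 scale, and 1.3% of all transcripts had a smaller SD within diets than its 0.13. Between the means its log2 fold change was 0.07 (standard error 0.12; limma p = 0.577, exact permutation p = 0.405), and it was 0.017 without P1.2 replicate 2. Its 95% interval of -0.19 to 0.33 lay within a fold change of 1.3 in either direction, and this held for no other member.

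G0s2 codes for the protein that binds and blocks the same lipase. Its log2 signals were 6.94, 7.25 and 8.15 (lowest, median and highest) in P1.2 mice, against 6.73, 7.16 and 8.32 in P0.3 mice. The 3 highest values belonged to P0.3 replicate 11, P1.2 replicate 12 and P0.3 replicate 9. The log2 fold change was -0.02 (standard error 0.28, 95% interval -0.61 to 0.56; limma p = 0.931, exact permutation p = 0.950), and its sign turned under several alternatives.

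Lipe had log2 signals of 6.55, 7.42 and 7.78 (lowest, median and highest) in P1.2 mice, against 6.25, 7.06 and 7.55 in P0.3 mice. P1.2 replicate 4 and P0.3 replicate 7 were the low ends, and 5 of 6 P1.2 mice lay above the P0.3 mean. The log2 fold change was 0.27 (standard error 0.23, 95% interval -0.22 to 0.75; limma p = 0.259, exact permutation p = 0.327). With each array left out it was between 0.11 (without P0.3 replicate 7) and 0.42 (without P1.2 replicate 4).

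Mgll, the last enzyme of the path, had log2 signals of 6.98, 7.43 and 8.003 (lowest, median and highest) in P1.2 mice, against 6.96, 7.35 and 8.39 in P0.3 mice. The diets covered nearly the same range, with 3 P1.2 mice on each side of the P0.3 mean. The log2 fold change was -0.02 (standard error 0.24, 95% interval -0.52 to 0.48; limma p = 0.941, exact permutation p = 0.939).

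The spread between mice followed the fibre type genes for part of the members. The mean log2 signal of 14 slow fibre genes, which code for the contractile and calcium-handling proteins of slow fibres, was 10.27 ± 1.58 in P1.2 mice and 10.27 ± 1.94 in P0.3 mice (SD, n = 6 each). It differed widely within each diet, between 8.62 and 12.65 in P1.2 mice and between 7.95 and 12.66 in P0.3 mice. Myh7, the slow myosin gene, spanned 8.66 to 14.95 in P1.2 mice and 8.97 to 14.80 in P0.3 mice. The widest gap of the slow fibre mean lay between 10.25 and 11.61, and it left 4 arrays above it, P1.2 replicates 2 and 12 and P0.3 replicates 9 and 11. RNA came from an aliquot of the muscle, and a different piece of the muscle and a different fibre makeup of the mouse cannot be told apart. In whole tissue, fewer cells of a type and less RNA per cell cannot be told apart either.

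A slope on the slow fibre mean was fitted for every transcript beside diet. It was positive at an adjusted p under 0.05 (limma, Benjamini-Hochberg over all transcripts) for 4 of 9 members and negative for 0. Over all transcripts 2.05% had such a positive slope, among them 13 of the 14 genes that make up the mean, and 1.09% a negative one. Pnpla2 had the steepest slope, with 0.29 log2 units per log2 unit of the slow fibre mean (standard error 0.05, adjusted p = 0.00293). The slope was 0.26 for G0s2 (standard error 0.06, adjusted p = 0.0150), 0.23 for Mgll (standard error 0.05, adjusted p = 0.0112) and 0.20 for Lipe (standard error 0.05, adjusted p = 0.0465). Pnpla2 lay between 15.97 and 16.52 on the 4 arrays above the gap, and all other 8 arrays lay lower, between 14.79 and 15.89. Mgll also separated these arrays, with 7.75 to 8.39 above the gap and 6.96 to 7.56 below it. G0s2 overlapped, with 7.14 to 8.32 above the gap and 6.73 to 7.44 below it, because P1.2 replicate 2 stood at 7.14, whereas P1.2 replicate 12 and P0.3 replicates 9 and 11 were its 3 highest arrays. Lipe overlapped as well, with 7.43 to 7.57 above the gap and 6.25 to 7.78 below it.

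Plin3 had a slope of similar size, 0.28 (standard error 0.08), with an adjusted p of 0.0850, and the dim Plin5 had one of 0.16 (adjusted p = 0.137). For Plin2 (0.03), Plin4 (0.05) and Abhd5 (-0.01) the adjusted p was between 0.844 and 0.948. The 95% interval of the Abhd5 slope, -0.09 to 0.07, did not reach that of Pnpla2, 0.18 to 0.39. The difference between these slopes was not tested.

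The calls on the slope rested on the arrays with the most slow fibre signal. Among the 8 arrays below the gap, a set chosen after the values were seen, 0 members and 2 transcripts had an adjusted p under 0.05, and the slope was 0.11 for Pnpla2, 0.11 for G0s2 and 0.15 for Mgll. Lipe had a slope of 0.42 there, with an unadjusted limma p of 0.0120 and an adjusted p of 1. With each array left out in turn, Pnpla2 kept its call without any of the 12. The call of Mgll was lost without P0.3 replicate 9 (adjusted p = 0.0825), and that of G0s2 without P1.2 replicate 12, P0.3 replicate 9 or P0.3 replicate 11 (adjusted p between 0.0662 and 0.0906). The call of Lipe was lost without any 1 array except P1.2 replicate 6, with adjusted p between 0.0532 and 0.150, and after centring the arrays on their medians (0.0618), after quantile normalization (0.0607) and with the adipocyte mean in the same fit (0.0968). Without P1.2 replicate 2 or 6, Plin3 had an adjusted p of 0.0236 or 0.0443.

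**Figure D3:**
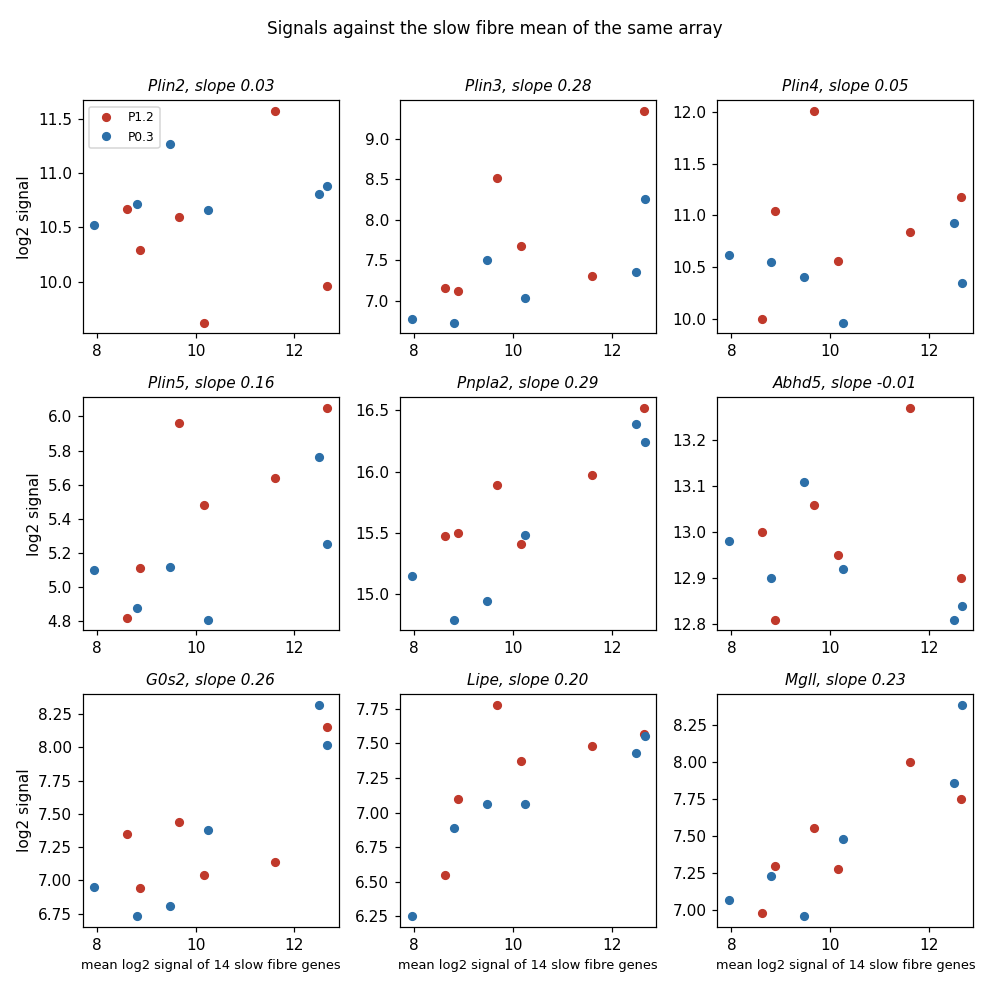
Log2 signal of each gene against the mean log2 signal of 14 slow fibre genes on the same array, for P1.2 (red) and P0.3 (blue) mice, with the slope of limma beside diet in each title. Pnpla2, G0s2, Mgll and Lipe rise along the axis, and Abhd5, Plin2 and Plin4 do not follow it. Plin3 (slope 0.28) and Plin5 (slope 0.16) also rise, with an adjusted p above 0.05. The 4 arrays at the right are P1.2 replicates 2 and 12 and P0.3 replicates 9 and 11.

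Fat cells express the same genes, so adipocyte markers were read on the same arrays. The mean log2 signal of 12 adipocyte markers was 6.95 ± 0.47 in P1.2 mice and 6.87 ± 0.35 in P0.3 mice (SD, n = 6 each), with ranges of 6.41 to 7.58 and 6.39 to 7.35. The adiponectin gene Adipoq was above the receptor level of 6.11 on 10 of 12 arrays, with 5.62 to 8.73 in P1.2 mice and 5.85 to 8.24 in P0.3 mice. Plin1, the perilipin of fat cells, and Lep were above it on 0 arrays. A slope on the adipocyte mean had an adjusted p under 0.05 for 0 of 9 members and for 0.018% of all transcripts, while 1288 transcripts had an unadjusted p under 0.05. Plin3 had the steepest such slope of the members, 0.99 (standard error 0.41, adjusted p = 0.817). With this mean in the fit, the diet difference of Plin3 was 0.50 (standard error 0.31).

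Several members also varied together between mice. For each pair of members, of which there were 36, Pearson's r was computed over the 12 arrays after the mean of each diet had been removed. Pnpla2 and G0s2 had r = 0.953 (Spearman's rho 0.909), the highest of all pairs, with a permutation p of 0.00027 for r and 0.00066 for rho (100000 permutations within diets). In the order of r with Pnpla2, G0s2 ranked 9th of the other transcripts. In the fit of all other transcripts on G0s2, Pnpla2 had an adjusted p of 0.00353. The value was 0.851 within the P1.2 group and 0.995 within the P0.3 group, and it was between 0.935 and 0.977 when each array was left out. It was 0.906 without the 2 arrays farthest from the median of Pnpla2, 0.864 among the 8 arrays below the gap of the slow fibre mean, and 0.858 after the slow fibre mean had been removed (adjusted p = 0.571 in the fit on G0s2 with that mean).

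Pnpla2 and Mgll had r = 0.845 (rho 0.881, permutation p = 0.0021 for r and 0.00098 for rho, adjusted p = 0.0147 in the fit on Pnpla2). This value was 0.911 without the 2 arrays farthest from the median of Pnpla2 and 0.681 among the 8 arrays. With the slow fibre mean removed it was 0.30. The neighbouring genes Plin4 and Plin5 had r = 0.747 (rho 0.594, permutation p = 0.012 for r and 0.069 for rho), which was 0.709 without the 2 arrays farthest from the median of Plin4, 0.828 among the 8 arrays and 0.875 with the slow fibre mean removed. The adjusted p of that pair was 1.00 in the fit on Plin4, and Plin5 is dim. Among Plin3, Plin5, Pnpla2, Lipe, Mgll and G0s2, all 15 pairs had positive r, between 0.526 and 0.953. This set was chosen after the values were seen, so the shared sign is no test. Plin4, left out of the set, had r between 0.224 with G0s2 and 0.747 with Plin5. With the slow fibre mean removed, 10 of the 15 pairs were positive and 5 negative, between -0.261 for Lipe with G0s2 and 0.858.

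Plin2 and Abhd5 stood apart from these. They had r = 0.713 with each other (rho 0.608, permutation p = 0.029 for r and 0.067 for rho, adjusted p = 0.877 in the fit on Plin2). The relation rested on few arrays, since the value was 0.156 without the 2 arrays farthest from the median of Abhd5, 0.564 without the 2 farthest from the median of Plin2, 0.496 among the 8 arrays, and between 0.453 and 0.781 when each array was left out. With the 7 members other than Plin2, Abhd5 had r between -0.404 and 0.025, and with the 7 other than Abhd5, Plin2 had r between -0.187 and 0.221. The AGGTCA core sites printed above are in the windows of this pair and in 1 of Plin5. Plin5 had r = -0.013 with Plin2 and 0.025 with Abhd5, and a part of these sites in the signals was not tested.

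**Figure D4:**
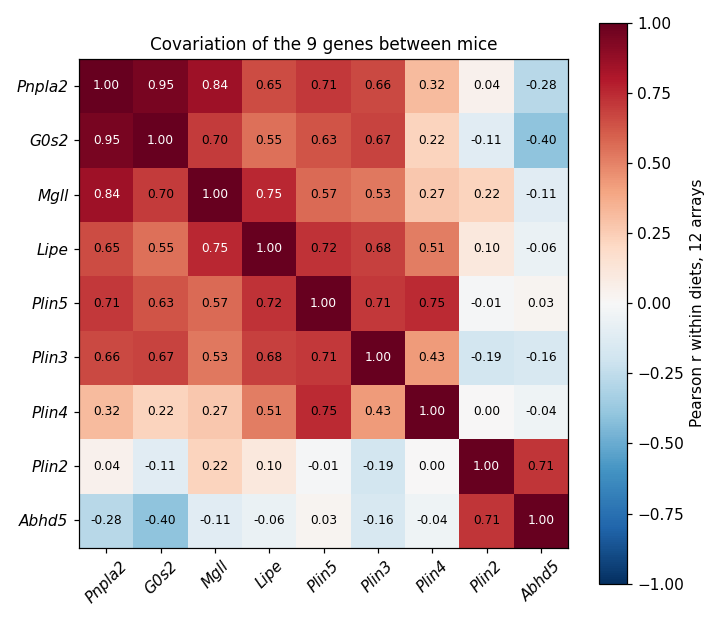
Pearson's r between the log2 signals of each pair of genes over 12 arrays after each diet's mean was removed, from -1 (blue) to 1 (red). Pnpla2 and G0s2 have the highest value, 0.953, and Plin2 and Abhd5 are near 0 or below with most other genes but at 0.713 with each other.

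Among all other transcripts, those most like Pnpla2 were Hadh (r = 0.983, adjusted p = 2.07e-05), an enzyme of fatty acid oxidation, and Sirt5 (r = 0.961, adjusted p = 0.00514), a mitochondrial deacylase. For G0s2 they were Pnpla2 itself and Il15 (r = 0.929, adjusted p = 0.00269), a cytokine gene expressed in muscle. For Mgll they were Ltbp4 (r = 0.960, adjusted p = 0.00179) and Slc8b1 (r = 0.958, adjusted p = 0.00490), an exchanger of mitochondrial calcium. At an adjusted p under 0.05, 507 transcripts followed Pnpla2 upwards and 496 downwards. The counts were 283 and 312 for G0s2, 298 and 106 for Mgll, and at most 8 for each of the others. With the slow fibre mean in the fit, they were 0 for all members but Plin2, which had 3. The transcripts most like Lipe were Sri (r = 0.949, adjusted p = 0.195) and Osbpl1a (r = 0.942, adjusted p = 0.0334). Plin3 was most like Mroh2a (r = 0.936, adjusted p = 0.175) and Gda (r = 0.927, adjusted p = 0.0542). The nearest of Plin2, Stip1 (r = 0.966) and Serpinb1c (r = 0.956), of Plin4, Myo1c (r = 0.904) and Dusp6 (r = 0.896), of Plin5, Olfr855 (r = 0.940) and Ednrb (r = 0.926), and of Abhd5, Olfr686 (r = 0.884), had adjusted p between 0.0758 and 1.

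Other droplet and lipolysis genes were compared between the diets in the same fit, in which 0.919% of all transcripts were called higher and 1.36% lower. Of 18 other droplet proteins, 0 were called, with a median log2 fold change of 0.03, and the smallest p belonged to Hilpda, an inhibitor of ATGL that hypoxia induces. Hilpda had a mean log2 signal of 7.38 ± 0.34 in P1.2 mice and 7.66 ± 0.20 in P0.3 mice (SD, n = 6 each), a log2 fold change of -0.28 (limma p = 0.106, exact permutation p = 0.119). Hsd17b11, a droplet dehydrogenase, had 0.25 (limma p = 0.209, exact permutation p = 0.264). Of 24 other lipolysis genes, 1 was called higher and 1 lower, with a median of 0.02.

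The gene called lower was Adora1, an adenosine receptor that restrains lipolysis in fat cells, at a signal below the receptor level, with 4.86 ± 0.35 in P1.2 mice and 5.33 ± 0.48 in P0.3 mice (SD, n = 6 each). Its log2 fold change was -0.47 (limma p = 0.0461, exact permutation p = 0.0844), and the call was lost without any 1 of 7 arrays, P1.2 replicates 2, 6, 8 and 10 and P0.3 replicates 3, 7 and 9 (limma p between 0.0643 and 0.117).

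Of 22 PPAR target genes, 1 was called higher and 0 lower between the diets, with a median log2 fold change of 0.13. This was Acot1, a cytosolic acyl-CoA thioesterase, with 7.12 ± 0.37 in P1.2 mice and 6.63 ± 0.14 in P0.3 mice (SD, n = 6 each). Its log2 fold change was 0.49 (limma p = 0.00864, exact permutation p = 0.0238), it was above the P0.3 mean in 6 of 6 P1.2 mice, and its adjusted p was 1.00. The slope on the slow fibre mean was positive at an adjusted p under 0.05 for 12 of these 22 genes, with 1.02 for the lipoprotein lipase gene Lpl, 0.53 for the fatty acid transporter gene Cd36 and 0.50 for the oxidation gene Acadl. It was so for 0 of the 18 other droplet proteins and for 1 of the 24 other lipolysis genes, Prkg1. It was also so for 2 of the 12 fast fibre and general muscle genes. These were the fast myosin gene Myh1 (0.55, adjusted p = 6.37e-06) and Mb (0.66, adjusted p = 1.47e-05). Markers of other cell types also had such slopes, 3 of 4 erythroid markers (0.54 for Hbb-bt, adjusted p = 0.00116), 2 of 8 endothelial markers (0.32 for Kdr, adjusted p = 0.000846, and 0.20 for Emcn, adjusted p = 0.0423), and 2 of 12 adipocyte markers (0.22 for Pparg, adjusted p = 0.00978, and 0.21 for Fabp4, adjusted p = 0.0421). The part of these cells in the slopes of the members was not tested beyond the fit with the adipocyte mean, in which Pnpla2 (adjusted p = 0.00808), Mgll (0.0282) and G0s2 (0.0302) kept their calls.

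Among markers of other cell types, 1 gene was called between the diets. Of 12 adipocyte markers 1 was called, Lep, which was lower in the P1.2 group with 5.19 ± 0.26 in P1.2 mice and 5.74 ± 0.30 in P0.3 mice (SD, n = 6 each), a log2 fold change of -0.55, and lay below the receptor level on all arrays. Of the brown adipocyte, slow fibre, fast fibre and general muscle, endothelial, macrophage, neutrophil and erythroid lists, 0 genes were called. The neutrophil gene S100a8 came close, with 5.83 ± 1.33 in P1.2 mice and 4.90 ± 0.26 in P0.3 mice (SD, n = 6 each), and all 6 P1.2 mice lay above the P0.3 mean. Its log2 fold change was 0.94 (limma p = 0.0516, exact permutation p = 0.0195), and 0.40 without P1.2 replicate 2 (exact permutation p = 0.0411). On every array but that of P1.2 replicate 2, S100a8 lay below the receptor level. The other neutrophil markers had log2 fold changes between -0.34 and 0.38. Zic1, a marker of brown fat cells, had a log2 fold change of 0.37 (limma p = 0.0863, exact permutation p = 0.0974). The other brown fat markers lay below the receptor level, with log2 fold changes between -0.17 for Elovl3 and 0.18. The muscle markers were bright on all arrays, with list means between 18.75 and 19.09 in P1.2 mice and between 18.63 and 19.08 in P0.3 mice. Acta1, Myh4 and Atp2a1 had means of 19.93 in both diets, which is also the highest signal on the arrays. A difference or slope above that level could not be seen. Array medians lay between 6.29 and 6.40, and no pair of arrays correlated below 0.975.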

How the data were processed

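RNA of the M. gastrocnemius was hybridized to Clariom S mouse arrays. The authors computed the deposited log2 signals with GCCN-SST-RMA in Expression Console (version 1.4), which corrects background, normalizes between arrays and summarizes the probes of a transcript. These values were also deposited in a form rounded to 2 decimals. Deposited columns of the authors' group means on the log2 scale, their log2 difference, signed fold change and p-value were not used. The genome build is not given in the sources used here.

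The diets were compared (P1.2 minus P0.3) with lmFit and eBayes of limma (version 3.58.1, R version 4.3.3), with Benjamini-Hochberg adjustment over all 22206 transcripts. Slopes on the slow fibre and adipocyte means were fitted beside diet. Likeness was tested by entering each member as a covariate. Exact permutation tests were two-sided. The diet fit and the fit of the slope on the slow fibre mean were tested on simulated data. Other tools were Python 3.11.15 and scipy 1.17.1. Promoters came from RefSeq, with motifs sought on both strands.

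The members and lists were chosen with earlier results of these data known. All members were named, and of each other list the genes with an unadjusted p under 0.05, or else the 2 with the smallest p, of which some are given as counts only. For each member the 2 transcripts with the highest r were named. Results for 2 genes of these rules are not reported here. Cd36, Lpl, Acadl, Prkg1, Pparg, Fabp4, Myh7, Adipoq, Plin1, Acta1, Myh4 and Atp2a1 were named after their values were seen. Alternatives were other tests, priors, weights, scalings, the rounded table, a filter on dim transcripts, both means as covariates and leaving out each array. The labels give no batch or scan date. Each mouse gave 1 array, so p-values weigh a difference against the spread between mice, whose precision is set by how many arrays there are. In limma that spread is drawn in part from all transcripts. The part of shared cages was not tested.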

Additional observations from a re-analysis of the deposited data

Results flagged for a closer look

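For 0 of the 9 members did a single mouse stand far from the others of its diet by Dixon's criterion for 6 values. Among the named genes of other lists, P1.2 replicate 2 stood apart for S100a8, at 8.53 where the next P1.2 mouse was at 5.50. It also stood apart for Retnlg, at 5.34 where the next was at 4.16. Both are neutrophil genes, named because they had the smallest diet p of their list. The other neutrophil markers were not examined in this way. Their log2 fold changes between the diets lay between -0.34 and 0.22. Retnlg lay below the receptor level of 6.11, and so did S100a8 on every array but this 1. This array also held the highest Plin2 (11.57) and Abhd5 (13.27) signals of all 12 arrays. Chance flags some of the groups examined.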

How the results depend on the processing

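The number of arrays limits all results, Plin5 is not set apart from background, and the slow fibre signal of the aliquot varies more than any member. No paired analysis was possible because the diets share no replicate numbers. The log2 fold changes of the members kept their direction and side of the study's criteria in 196 of 215 alternatives. They passed the criteria in 6 and turned sign in 13, all of these sign changes for Mgll and G0s2. Some of the 215 could not differ. The mean of all rows of a symbol equals the main value, since each member has 1 row. The t-tests and the other limma prior could change p but not the log2 fold change. Mgll was at 0.023 with array weights and 0.012 with centred arrays, and between -0.13 and 0.16 with each array left out. G0s2 was at 0.0051 with centred arrays and between -0.19 and 0.17 with each array left out. The filter on dim transcripts left no value for Plin5.

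The count of called members was 1 with the slow fibre mean in the fit and between 0 and 2 with each array left out. Over all transcripts, 134 were higher with unequal variances and 104 above the receptor level, where 66 were lower. With each array left out, 195 to 323 were higher and 284 to 478 lower. Transcripts with a slow fibre slope numbered 358 to 1025 and members 1 to 5 with each array left out, and 2 and 0 among the 8 arrays below the gap. Transcripts with an adipocyte slope numbered 3 to 13 with each array left out. The slow fibre slope of Plin2 was -0.0021 beside the adipocyte mean, -0.081 among the 8 arrays and between -0.034 and 0.091 with each array left out. That of Plin4 was -0.029 among the 8 arrays and between -0.0087 and 0.082, and that of Abhd5 was 0.0074 after quantile normalization and 0.015 among the 8 arrays. The adipocyte slope of Plin4 was between -0.20 and 0.56. The cause of these shifts was not tested.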
